A study of Mus musculus with 48 samples.

Results

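RNA-seq was used to compare splenic monocytes with splenic red pulp macrophages (RPMs) in mice labelled *Il1rl1*-/-, with 4 libraries of each cell type. These 8 libraries were chosen by their labels, from 24 RNA-seq libraries and 48 samples in all, and the 24 ATAC-seq samples of the study were not analysed here. The mice were males of a Balb/c background, aged 10 weeks, and no treatment is named. Monocytes were sorted from fresh splenocytes as Ly6Glo CD11bhi F4/80- cells and RPMs as Ly6Glo CD11blo/- F4/80hi cells. The labels give both cell types for mice 1, 2, 3, and 4, and per-library values are listed in that order throughout. Both groups carry the same genotype label, which is given for the whole mouse, so the comparison is between cell types and not between genotypes. Pre-RPMs (Ly6Glo CD11bhi F4/80lo) of the same 4 mice are given beside some values, and WT Balb/c monocytes and RPMs, also 4 libraries each from 10-week-old males, enter only where the change itself was compared between genotypes.

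RPMs are the resident macrophages of the splenic red pulp, where they engulf aged red blood cells, break down heme, and return its iron to the circulation through ferroportin. Their identity depends on the ETS-family transcription factor SPIC, whose gene is derepressed when heme removes the repressor BACH1. Monocytes are circulating and splenic phagocytes that can give rise to RPMs through a pre-RPM stage, and IL1RL1 is the receptor through which IL-33 signals. The comparison describes how far the 2 ends of this series of cells differ in mice that lack, by label, this receptor.

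The targeted gene, *Il1rl1* (ENSMUSG00000026069, chr1:40429570-40465415, plus strand, GRCm38), was counted in all 8 libraries. In monocytes it had 51, 73, 71, and 64 counts, or 12.5, 15.3, 15.3, and 13.2 CPM (counts scaled to library size), and in RPMs 1, 7, 3, and 6 counts, or 0.224, 1.14, 0.658, and 1.28 CPM. The groups did not overlap (log2 fold change −4.003, SE 0.30, edgeR adjusted p = 3.8e-07). Reads were thus counted on the targeted gene in monocytes labelled *Il1rl1*-/-. The exons they lie on were not analysed here, so the deletion could not be checked from these counts. Libraries are named here by their genotype label. Of the genes of the sorting markers, *Itgam* and *Adgre1* followed the gates and are a check only, since the gates used their proteins. *Itgam*, which encodes CD11b, was at 64.2, 66.4, 85.9, and 86.4 CPM in monocytes and 1.79, 0.981, 1.10, and 0.852 CPM in RPMs. *Adgre1*, which encodes F4/80, was at 10.6, 19.96, 41.6, and 39.3 CPM and 287, 290.1, 281, and 313 CPM. *Ly6g* was at 5.41, 6.93, 10.3, and 8.03 CPM in monocytes and had no count in any RPM library. It was thus lower in RPMs (log2 fold change −8.20), although both cell types were gated as Ly6Glo. The source of the *Ly6g* counts in monocytes was not tested.

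Total counts on genes ranged from 3562367 to 5326720 over the 8 libraries, and 19928 to 21165 genes had counts. The ribosomal transcript *Gm42418* took 25.8% to 34.9% of the counts of a library, and mitochondrial genes took 6.30% to 8.07% in monocytes and 7.72% to 10.1% in RPMs. The median total was 4784408.5 in monocytes and 4767559.5 in RPMs. No 2 libraries held identical counts. In these bulk samples, fewer cells of a type and less RNA of a gene per cell cannot be told apart.

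Of 11633 genes tested, 3009 were called at an adjusted p under 0.01 and a log2 fold change beyond 1 (25.9% of all tested), with 1662 higher in RPMs (14.3%) and 1347 lower (11.6%). The CPM of the groups did not overlap for 2975 of the 3009 called genes, and for 46.8% of all genes tested. The shares over all genes tested are the background to the list counts below, and to the genes whose groups did not overlap. Among called genes, the median log2 fold change was 2.05 for those higher and −2.42 for those lower, and the median over all genes tested was 0.015. Differences beyond 6 on the log2 scale were found for 134 genes higher in RPMs and 92 lower. Among genes with a mean log2 CPM of at least 3, the 12 largest rises included complement and phagocytic receptor genes (*C6*, *C1qb*, *C1qc*, and *Mertk*), the adhesion molecule *Vcam1*, the potassium channel genes *Kcnj10* and *Kcnj16*, and the hemoglobin genes *Hbb-bs* and *Hba-a2*. The 12 largest falls were those of the granule and calprotectin genes *S100a8*, *S100a9*, *Ngp*, *Ltf*, *Camp*, and *Lcn2*, the monocyte genes *F13a1*, *Fn1*, *Ace*, and *Anxa1*, and the lymphoid genes *Igha* and *Gzma*.

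**Figure D1:**
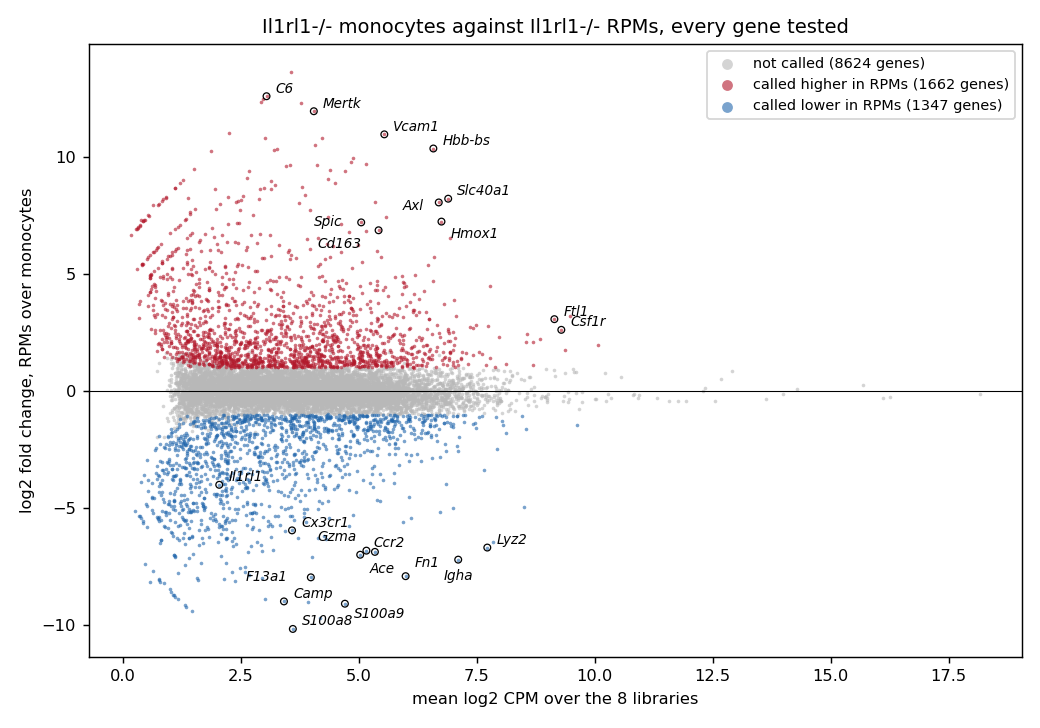
Each point is 1 of the 11633 genes tested, with its mean log2 CPM over the 8 libraries on the x axis and its log2 fold change (RPMs over monocytes) on the y axis. The 1662 genes called higher (red) and the 1347 called lower (blue) lie on both sides of a band of genes that were not called, and circled genes are named.

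Promoters of 4 genes that differ strongly between the cell types are shown because each holds the purine-rich ETS motif GAGGAAG, a sequence that PU.1 and SPIC, ETS factors of macrophages, are known to bind. *Cd5l* and *Axl* rose from monocytes to RPMs, and *F13a1* and *Ly6c2* fell. Each is the 250 bases before a RefSeq start of the gene (GRCm38.p6) that overlap no annotated gene, written 5′ to 3′ on the strand of the gene, and capitals mark the motif or its reverse complement CTTCCTC.

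Cd5l (chr3:87357631-87357880, plus strand): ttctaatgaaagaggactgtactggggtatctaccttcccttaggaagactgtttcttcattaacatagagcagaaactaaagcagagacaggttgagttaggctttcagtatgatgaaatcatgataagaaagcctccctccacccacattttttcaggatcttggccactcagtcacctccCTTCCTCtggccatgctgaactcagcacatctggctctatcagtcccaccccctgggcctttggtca
Axl (chr7:25788734-25788983, minus strand): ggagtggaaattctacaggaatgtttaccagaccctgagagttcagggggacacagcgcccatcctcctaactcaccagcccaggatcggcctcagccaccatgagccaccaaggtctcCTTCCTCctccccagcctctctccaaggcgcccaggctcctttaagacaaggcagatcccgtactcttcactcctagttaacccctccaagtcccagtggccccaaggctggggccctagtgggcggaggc
F13a1 (chr13:37050245-37050494, minus strand): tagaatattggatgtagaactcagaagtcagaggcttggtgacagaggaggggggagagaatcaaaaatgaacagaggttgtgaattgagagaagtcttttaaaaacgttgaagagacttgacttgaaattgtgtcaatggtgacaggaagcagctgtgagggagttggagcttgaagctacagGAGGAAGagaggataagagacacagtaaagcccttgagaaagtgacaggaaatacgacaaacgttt
Ly6c2 (chr15:75111972-75112221, minus strand): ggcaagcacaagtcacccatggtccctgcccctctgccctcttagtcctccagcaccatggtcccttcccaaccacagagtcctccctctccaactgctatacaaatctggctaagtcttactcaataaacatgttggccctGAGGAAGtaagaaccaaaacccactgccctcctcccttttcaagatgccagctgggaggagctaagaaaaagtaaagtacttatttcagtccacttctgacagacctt

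The motif begins 67 bases before the start of *Cd5l* and 131 before that of *Axl*, both on the opposite strand, and 66 bases before the start shown of *F13a1* and 108 before that of *Ly6c2*, both on the strand of the gene. *F13a1* and *Ly6c2* each have 2 starts in the table, and the windows not shown overlap an annotated gene. The motif is not in the other window of *F13a1* and begins 142 and 8 bases before the other start of *Ly6c2*. Over all 250-base windows, GAGGAAG on either strand stood in 11.2% of those of genes called higher in RPMs, 15.5% of those of genes called lower, 11.3% of those of all genes tested, and 10.6% of the whole RefSeq table. A window was found for 1222 of the 1662 genes higher, 915 of the 1347 lower, and 8561 of the 11633 tested. The GATA motif AGATAA stood in 6.90%, 6.41%, and 5.90% of these windows, and the interferon-stimulated response element in 3.85%, 3.41%, and 2.85%. The C/EBP motif TTGCNNCAA stood in 1.74%, 1.95%, and 1.23%, and the palindromic E-box TCACGTGA of lysosomal genes in 1.06%, 0.568%, and 1.57%. The MAF recognition element TGACTCAGC, the kind of site that BACH1 and NRF2 bind, stood in 0.435%, 0.487%, and 0.283%. In the whole RefSeq table, the shares were 9.99% (GATA), 2.98% (interferon-stimulated response element), 1.74% (C/EBP), 0.785% (E-box), and 0.39% (MAF recognition element). A match is a description of letters in these windows and was not tested as a binding site.

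All 12 RPM identity genes rose, with a median log2 fold change of 7.64. *Spic*, the transcription factor that specifies RPMs, was at 1.72, 2.52, 3.23, and 2.68 CPM in monocytes and 349, 433, 355, and 373 CPM in RPMs (log2 fold change 7.20, SE 0.19, edgeR adjusted p = 9.86e-11). *Vcam1*, an adhesion molecule that retains cells in the red pulp, was at 0.984, 1.26, 0.215, and 1.03 CPM and 1799.5, 1793, 1658, and 1855 CPM (log2 fold change 10.95, SE 0.27, edgeR adjusted p = 8.33e-11). Every RPM library was above every monocyte library for both genes, and the RPM libraries lay close together. The TAM receptor tyrosine kinase *Mertk*, which binds bridged phosphatidylserine on dying cells, had 2 counts in the monocyte library of mouse 1 and none in the other 3, against 503, 567, 513, and 541 CPM in RPMs. Its pooled ratio was 4896 (95% counting interval 1355 to 40429), where the interval covers counting error only. *Cd5l*, a secreted scavenger protein of tissue macrophages, had no count in monocytes and 126, 109, 202, and 151 CPM in RPMs, at least 880.5-fold higher against a floor of 3 counts over the monocyte group.

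Among the other identity genes, the integrin *Itgad* was at 2.46, 1.26, 0.431, and 0.412 CPM in monocytes and 912, 945, 913, and 959.8 CPM in RPMs, and the TAM receptor *Axl* at 3.44, 4.20, 8.40, and 9.47 CPM and 1784, 1626, 1716, and 1685 CPM (9.70 and 8.05 on the log2 scale). *Cd163*, the scavenger receptor for hemoglobin bound to haptoglobin, was even across mice in both groups, at 3.44, 3.78, 4.09, and 3.70 CPM and 452, 490.4, 396, and 415 CPM (log2 fold change 6.86, SE 0.15, edgeR adjusted p = 6.52e-11). The smallest changes of the list were those of *Slc11a1*, an endosomal iron transporter (3.37), *Treml4*, a receptor for dead cells (3.07), and *Trf*, the plasma iron carrier transferrin (2.89). *Treml4* was at 15.3, 24.4, 48.0, and 41.4 CPM in monocytes, so it was present in every library of both cell types. In pre-RPMs of the same mice, *Spic* was at 8.99, 11.7, 11.6, and 11.4 CPM, *Vcam1* at 1.66, 3.05, 3.27, and 2.80 CPM, and *Cd163* at 2.13, 3.22, 2.38, and 3.73 CPM.

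The largest rises also included genes outside the identity list. *Col14a1*, which encodes a fibril-associated collagen, and *C6*, a component of the terminal complement complex, had no count in any monocyte library and were at 345, 310.2, 300.2, and 364 CPM and 149, 163, 167, and 162 CPM in RPMs. They were at least 2006.5-fold and at least 980.6-fold higher. *Kcnj10*, an inward rectifier potassium channel, had 1 count in the 4 monocyte libraries together and was at 446, 412, 381, and 378 CPM in RPMs, a pooled ratio of 7407 (95% counting interval 1329 to 292610). Its partner *Kcnj16* was at 131, 136, 121, and 179.5 CPM, with a ratio of 2594 (95% counting interval 465 to 102480). The lipid kinase gene *Dgki* and the organic anion transporter gene *Slco2b1*, also among the 12 largest rises, were at 155 to 195 and 155 to 191 CPM in RPMs and had 2 and 2 counts in all monocyte libraries together.

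**Figure D2:**
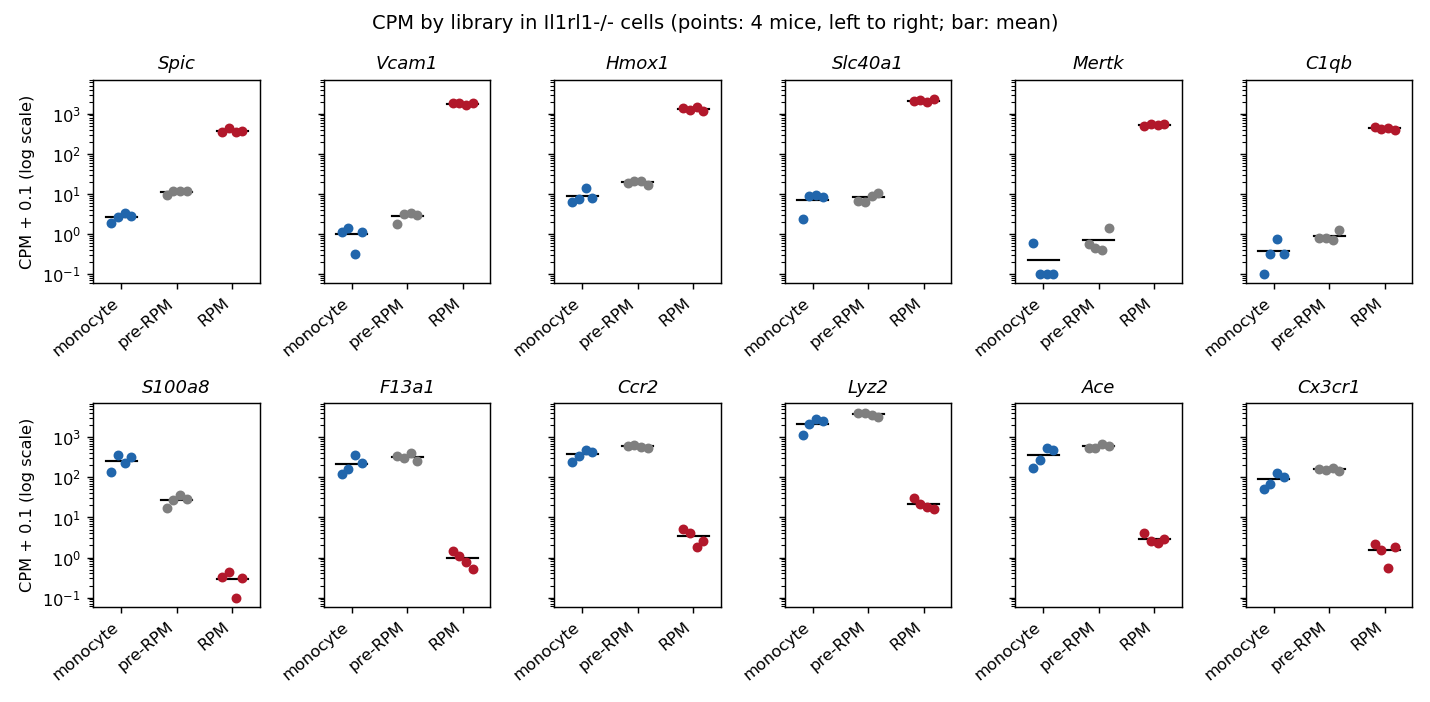
CPM plus 0.1 on a log axis for 12 genes in *Il1rl1*-/- monocytes, pre-RPMs, and RPMs, with a point for each of 4 mice (left to right) and a bar at the mean. The 6 genes of the upper row are higher in every RPM library than in any other, the 6 of the lower row are lower in every RPM library, and on the log axis pre-RPMs lie nearer to monocytes than to RPMs in all 12 panels.

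Genes that handle heme and iron were mostly higher in RPMs. Of the 30 listed, 27 were tested, of which 17 rose and 2 fell, and the median log2 fold change was 1.97. *Hmox1*, the heme oxygenase that opens the heme ring, was at 6.15, 7.35, 13.8, and 7.82 CPM in monocytes and 1416, 1229.5, 1450.3, and 1188 CPM in RPMs (log2 fold change 7.23, SE 0.26, edgeR adjusted p = 8.14e-10). *Slc40a1*, which encodes the iron exporter ferroportin, was at 2.21, 8.83, 9.26, and 8.03 CPM and 2044, 2148, 1952, and 2318 CPM (log2 fold change 8.21, SE 0.34, edgeR adjusted p = 2.53e-09). Genes of the steps before and after heme oxygenase rose as well. *Slc48a1*, a heme transporter of the phagolysosome, was at 15.5, 13.9, 19.2, and 17.9 CPM and 186, 155, 226, and 219 CPM. Biliverdin reductase genes rose by 4.40 (*Blvrb*) and 2.58 (*Blvra*) on the log2 scale.

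The ferritin light chain gene *Ftl1* was at 140.2, 183, 250.5, and 218 CPM in monocytes and 1781, 1438, 1678, and 1718 CPM in RPMs, and the heavy chain gene *Fth1* at 145, 149, 185, and 173 CPM and 914, 746, 942, and 911 CPM (3.07 and 2.43 on the log2 scale). *Ftl1* was one of the 5 called genes with the most CPM per kb of exon in RPMs, at 1234 per kb. The transferrin receptor gene *Tfrc* rose by 2.59, with 39.9, 40.2, 69.5, and 61.8 CPM in RPMs, higher in mice 3 and 4 than in mice 1 and 2. Erythroid markers were also higher in the RPM libraries of mice 3 and 4, as given below, and *Tfrc* is abundant in erythroid precursors. The part of these transcripts in the level of *Tfrc* was not tested. *Lcn2* and *Bach1* fell. *Bach1*, the heme-sensitive repressor of *Spic* and *Hmox1*, was at 57.6, 82.6, 116, and 109 CPM in monocytes and 32.3, 30.9, 30.9, and 35.4 CPM in RPMs (log2 fold change −1.49, SE 0.19, edgeR adjusted p = 3.85e-05), and did not pass when tested against the fold threshold itself (adjusted p = 0.016). *Lcn2*, which binds bacterial siderophores and is stored in neutrophil granules, had 4 counts in all RPM libraries together, and its monocyte to RPM ratio was 544 (95% counting interval 212 to 1997). Among the 8 members not called, the poly(rC)-binding iron chaperone gene *Pcbp2* was at 105 to 149 CPM in monocytes and 94.95 to 109 CPM in RPMs.

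Receptors and bridging molecules for dying cells, grouped as efferocytosis genes, changed in both directions. Of the 22 listed, 19 were tested, of which 11 rose and 4 fell, with a median of 2.78 on the log2 scale. Beside *Mertk* and *Axl*, their ligand gene *Gas6* rose, from 1.48, 0.420, 0.861, and 0.206 CPM to 31.2, 31.2, 31.8, and 27.7 CPM (log2 fold change 5.37, SE 0.29, edgeR adjusted p = 1.93e-08). The phosphatidylserine receptor genes *Stab2* and *Timd4* rose too. *Stab2* was at 0.246 to 0.630 CPM in monocytes and 217, 247, 214, and 193 CPM in RPMs, and *Timd4* at 0 to 0.492 and 22.6, 24.4, 39.7, and 30.5 CPM. The pooled ratios were 448 (95% counting interval 236 to 979.5) for *Stab2* and 88.4 (95% counting interval 40.4 to 242) for *Timd4*.

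The 4 members that fell included bridging molecules and an integrin subunit. *Pros1*, the other TAM ligand, was at 6.89, 9.88, 21.8, and 16.3 CPM in monocytes and 1.35, 0.654, 0, and 0.213 CPM in RPMs (log2 fold change −4.57, SE 0.56, edgeR adjusted p = 2.67e-05). *Mfge8*, which bridges phosphatidylserine to integrins, fell by 3.74 on the log2 scale, and *Itgb3*, a subunit of such an integrin, fell by 3.92. Another integrin beta chain gene of the list, *Itgb5*, rose by 3.24. *Gas6* and *Pros1*, which share the TAM receptors, thus moved in opposite directions, and for both the groups did not overlap. The engulfment adaptor *Dock1* was called with a log2 fold change of −1.08 although its groups overlapped, at 20.9, 45.8, 69.8, and 59.9 CPM and 25.8, 25.0, 20.8, and 20.9 CPM. With the mouse number as a replicate block, *Dock1* had a log2 fold change of −0.995 (edgeR adjusted p = 0.00719) and did not pass the fold threshold, and it also lost the call without any single library other than that of mouse 1 in monocytes.

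Complement genes changed in both directions. Of the 21 listed, 14 were tested, of which 7 rose and 4 fell, with a median of 1.77, and 7 members were left out by the filter on low counts. The 3 chains of C1q, which opens the classical pathway and tags dying cells, rose together. *C1qa* was at 1.72, 1.68, 4.31, and 1.65 CPM in monocytes and 669.6, 608, 633, and 639 CPM in RPMs, *C1qb* at 0, 0.210, 0.646, and 0.206 CPM and 476, 407, 439, and 401 CPM, and *C1qc* at 0.246, 0.630, 0.215, and 0 CPM and 542, 522, 539, and 498 CPM. The log2 fold change of *C1qa* was 8.07 (SE 0.26, edgeR adjusted p = 4.25e-10), and the pooled ratios of *C1qb* and *C1qc* were 1569.6 (95% counting interval 672 to 4835) and 1924 (95% counting interval 824 to 5926). Properdin (*Cfp*), which stabilizes the alternative pathway convertase, rose, with 8.20 to 16.2 CPM in monocytes and 305 to 350.4 CPM in RPMs. *C3* and the anaphylatoxin receptor genes *C5ar1* and *C3ar1* fell, with log2 fold changes of −3.01, −3.55, and −2.45. *C2* and *Cd59a* rose from low levels, to 5.16 to 10.1 and 2.02 to 7.88 CPM in RPMs.

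Scavenger receptors and lectins changed in both directions. Of the 20 listed, 17 were tested, of which 7 rose and 5 fell, with a median of 0.77. The mannose receptor *Mrc1* was even across mice, at 13.04, 12.2, 12.9, and 11.7 CPM in monocytes and 1122, 1129.8, 1009, and 1329 CPM in RPMs (log2 fold change 6.53, SE 0.16, edgeR adjusted p = 7.6e-11). The fungal lectin receptor *Clec4n* (dectin-2) rose, with 0.984 to 2.47 CPM in monocytes and 111 to 149 CPM in RPMs, whereas *Clec7a* (dectin-1) fell, with 56.6 to 132 CPM and 1.53 to 6.05 CPM. Both encode receptors that signal through SYK. The sialoadhesin gene *Siglec1* rose to 53.1, 54.6, 94.9, and 77.9 CPM from 3.69, 5.88, 11.6, and 9.26 CPM. *Marco* had no count in monocytes and 7.85, 4.25, 8.99, and 8.09 CPM in RPMs, at least 43.1-fold higher, while the class A scavenger receptor *Msr1* fell, with 7.38 to 33.6 CPM in monocytes and 0.817 to 2.34 CPM in RPMs. The C-type lectin genes *Cd209a* and *Clec10a*, which mark monocyte and dendritic cell subsets, fell (log2 fold changes −5.77 and −4.90). *Scarb2*, at 60.3 to 88.3 and 135 to 156 CPM, missed the fold threshold (0.95) and passed it without the monocyte library of mouse 3 (1.03) or of mouse 4 (1.01).

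Among genes of Fc gamma receptors and CD47 recognition, 4 of 11 rose and 2 fell, beside 25.9% called over all genes tested. *Fcgrt*, the neonatal Fc receptor that salvages IgG, was at 28.8, 34.3, 48.2, and 42.8 CPM in monocytes and 263, 256, 264, and 287 CPM in RPMs (log2 fold change 2.80, SE 0.16, edgeR adjusted p = 3.16e-08). The high-affinity receptor *Fcgr1* rose by 2.20, and *Sirpa*, the inhibitory receptor that reads CD47 on red blood cells, rose by 2.08, from 107, 156, 319, and 264 CPM to 931, 881, 892, and 858 CPM. The inhibitory receptor *Fcgr2b* fell by 2.01, from 34.7, 39.1, 48.5, and 49.4 CPM to 10.98, 12.9, 8.77, and 9.37 CPM. The activating receptor gene *Fcgr1* and the inhibitory *Fcgr2b* thus moved in opposite directions, and for neither did the groups overlap. The smaller changes of *Fcgr4* (1.25) and *Sirpb1a* (−1.14) did not hold in every set of libraries. *Fcgr4* lost the call without the monocyte library of mouse 1 (0.999) or mouse 2 (edgeR adjusted p = 0.0156), and *Sirpb1a* without that of mouse 4 (−0.95) or the RPM library of mouse 1 (edgeR adjusted p = 0.0101), and neither passed when tested against the fold threshold itself.

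About as many lysosomal genes rose as were not called. Of the 44 listed, 43 were tested, of which 21 rose and 1 fell, and the median log2 fold change was 1.00. *Acp2*, a lysosomal acid phosphatase, was at 7.38, 8.41, 12.1, and 11.9 CPM in monocytes and 217, 211, 224, and 212 CPM in RPMs (log2 fold change 4.44, SE 0.16, edgeR adjusted p = 1.04e-09). The proteases *Lgmn* (legumain) and *Ctsb* (cathepsin B) rose by 4.28 and 3.19 on the log2 scale, with 373, 361, 377, and 367 CPM and 2311, 2016, 2214, and 2197 CPM in RPMs. *Acp5*, the tartrate-resistant acid phosphatase, rose by 3.06. *Galns*, an enzyme of glycosaminoglycan breakdown, fell, with 9.35 to 17.4 CPM in monocytes and 1.80 to 3.95 CPM in RPMs (−2.19). For each of these 5 genes the groups did not overlap. The MiT/TFE factor genes *Tfeb* and *Tfe3*, regulators of lysosomal genes, were tested and not called, whereas *Mitf* was among the genes that rose.

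Of 24 genes of cholesterol and lipid handling, 9 rose and 2 fell, beside 25.9% called over all genes tested. The median log2 fold change was 0.48. The liver X receptor gene *Nr1h3* was at 1.72, 3.78, 4.52, and 2.88 CPM in monocytes and 107, 103, 98.7, and 86.0 CPM in RPMs (log2 fold change 4.91, SE 0.20, edgeR adjusted p = 2.29e-09), and its target *Abca1*, a cholesterol exporter, at 39.6, 29.4, 19.8, and 20.4 CPM and 169, 181, 182, and 160.2 CPM (2.67). The fatty acid receptor gene *Pparg* rose by 2.75, and *Lpl*, the lipoprotein lipase, by 3.92, to 321, 282, 314, and 348 CPM. The fatty acid-binding protein genes went opposite ways, with *Fabp5* at 0.210 to 0.738 and 6.21 to 8.31 CPM and *Fabp4* at 3.99 to 9.88 and 1.47 to 2.24 CPM. *Fabp5* had a pooled ratio of 16.5 (95% counting interval 8.16 to 38.99), and *Fabp4* fell by 1.96 on the log2 scale. The phospholipid transfer protein gene *Pltp* fell by 1.66. Without the monocyte library of mouse 2, or with DESeq2 or RLE size factors, 4 members were called lower, and 0 when tested against the fold threshold itself.

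Transcription factor genes of monocytes and macrophages separated the cell types in both directions. Of the 38 listed, 35 were tested, of which 11 rose and 12 fell, with a median of −0.65. The large MAF factor gene *Maf*, whose product restrains macrophage self-renewal, rose with *Spic*. It was at 10.6, 12.6, 12.3, and 15.8 CPM in monocytes and 437, 391, 391, and 384 CPM in RPMs (log2 fold change 4.96, SE 0.15, edgeR adjusted p = 3.16e-10). *Rxra*, the dimer partner of liver X receptors and PPARs, rose by 2.30. *Klf4* and *Klf2*, Krüppel-like factors of monocytes and quiescent leukocytes, fell. *Klf4* was at 41.1, 42.0, 81.2, and 67.9 CPM in monocytes and 4.26, 3.43, 2.63, and 1.92 CPM in RPMs, and *Klf2* at 278, 219, 193, and 162 CPM and 22.2, 14.4, 7.89, and 11.7 CPM (−4.23 and −3.92 on the log2 scale). *Irf4* fell by 3.19, and the C/EBP factor gene *Cebpb* fell by 1.76. *Spi1*, which encodes PU.1, was not called, at 67.2, 83.4, 155, and 131 CPM in monocytes and 73.1, 56.5, 67.8, and 59.0 CPM in RPMs (log2 fold change −0.77, SE 0.23, edgeR adjusted p = 0.0144), and its groups overlapped.

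*Runx3*, *Gata3*, and *Ets1* are also genes of natural killer (NK) and T cells. *Runx3* was at 102, 68.5, 41.6, and 52.5 CPM in monocytes and 4.93, 2.94, 4.82, and 1.70 CPM in RPMs, *Gata3* at 30.0, 16.2, 7.75, and 12.1 CPM and 2.47, 0.981, 0.219, and 1.70 CPM, and *Ets1* fell by 2.00 on the log2 scale. Within monocytes, *Runx3* and *Gata3* were highest in mouse 1 and lowest in mouse 3. The summed CPM of 8 NK cell markers had the same order, at 1653, 1250.5, 548, and 864 in monocytes and 30.5, 28.4, 14.9, and 18.1 in RPMs. The part of NK cell transcripts in these falls was not tested. *Gata2*, which encodes a factor of basophils, mast cells, and progenitors, was at 10.6, 9.67, 5.17, and 3.09 CPM in monocytes and 2.02, 0.327, 0.219, and 0.639 CPM in RPMs (log2 fold change −3.16, SE 0.57, edgeR adjusted p = 0.000589), and the 7 basophil and mast cell markers, which include it, summed to 35.9, 27.1, 18.5, and 11.3 CPM in monocytes.

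Classical monocyte genes were nearly all lower in RPMs. Of the 24 listed, 23 were tested, of which 1 rose and 20 fell, and the median of −5.52 was the lowest of the 20 lists. *Ccr2*, the chemokine receptor through which monocytes leave the bone marrow, was at 241, 342, 489, and 435 CPM in monocytes and 4.93, 3.92, 1.75, and 2.56 CPM in RPMs (log2 fold change −6.81, SE 0.32, edgeR adjusted p = 6.05e-09). *Ly6c2*, which encodes the surface antigen Ly6C, was at 45.0, 53.2, 76.7, and 62.6 CPM and 2.24, 0.163, 0.219, and 2.13 CPM (log2 fold change −5.69, SE 0.41, edgeR adjusted p = 2.45e-07). *F13a1*, a transglutaminase of clotting, was at 123, 165, 355, and 234 CPM and 1.35, 0.981, 0.658, and 0.426 CPM, and the matrix protein gene *Fn1* at 445, 748, 1758, and 1183 CPM and 6.73, 4.74, 3.07, and 2.56 CPM (−7.95 and −7.90). For these 4 genes every monocyte library was far above every RPM library. In pre-RPMs, *Ccr2* was at 595, 643, 587, and 557 CPM and *F13a1* at 333, 305, 406, and 254 CPM, in the range of the monocytes or above it.

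*Lyz2*, the lysozyme of myeloid cells, was at 1167, 2215, 2859, and 2613 CPM in monocytes and 30.9, 21.1, 17.8, and 16.2 CPM in RPMs (log2 fold change −6.68, SE 0.34, edgeR adjusted p = 1.37e-08), and it was among the 5 called genes with the most CPM per kb in monocytes, at 1682 per kb. The others were *Igkc* (4441), *S100a9* (1025), *Igha* (854), and *Gzma* (441). In RPMs, the 5 were *Hbb-bs* (5664 per kb), the small nucleolar RNA *Snord17* (3385), *Hba-a2* (1537), *Hba-a1* (1238), and *Ftl1*. Genes best known from other blood cells were thus among the highest per kb in both groups. The cells that these transcripts came from were not tested.

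*Chil3*, a chitinase-like protein of classical monocytes, had 905 counts in monocytes and 3 in RPMs, a ratio of 326 (95% counting interval 111 to 1586). *Anxa1*, which encodes the anti-inflammatory protein annexin A1, fell from 132, 208, 162, and 174 CPM to 2.47, 0.817, 0.877, and 0.852 CPM. *Cd14*, the lipopolysaccharide co-receptor, was the only member of the list that rose, from 3.20, 3.15, 4.52, and 3.91 CPM in monocytes to 61.2, 56.9, 57.5, and 54.1 CPM in RPMs (log2 fold change 3.95, SE 0.14, edgeR adjusted p = 1.04e-09). The summed CPM of the list was 3068, 5422, 7231, and 6414 in monocytes and 207, 185, 178, and 195 in RPMs, lowest in the monocyte library of mouse 1. Without that library, 3095 genes were called in all, against 3009.

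Calprotectin and neutrophil granule genes were the 6 with the largest falls. *S100a8* was at 138, 357, 225, and 321 CPM in monocytes and 0.224, 0.327, 0, and 0.213 CPM in RPMs, and *S100a9* at 313, 744, 462, and 622 CPM and 1.79, 0.817, 0.658, and 0.639 CPM (log2 fold change −9.08, SE 0.38, edgeR adjusted p = 2.81e-09). The pooled ratio of *S100a8* was 1315 (95% counting interval 513 to 4829). Both genes encode calprotectin subunits, which classical monocytes and neutrophils share. *Ngp* and *Ltf*, genes of neutrophil secondary granules, were at 241, 403, 508.2, and 429 CPM and 180.3, 288, 384, and 347 CPM in monocytes, and at 0.219 to 0.897 and 0 to 2.02 CPM in RPMs. *Camp*, the cathelicidin gene, had 6 counts over the RPM libraries, with a ratio of 556 (95% counting interval 255 to 1517). The 9 neutrophil markers summed to 600, 1022, 1195, and 1129 CPM in monocytes and 39.9 to 44.3 CPM in RPMs, with 6 of 7 tested members lower, and the sort gated on low Ly6G. The part of neutrophil transcripts in these falls was not tested.

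Nonclassical monocyte genes were lower in RPMs as well, with 10 of 13 down, 1 up, and a median of −2.62. *Ace*, the angiotensin-converting enzyme of nonclassical monocytes, was at 171, 268, 538, and 480.5 CPM in monocytes and 4.04, 2.45, 2.19, and 2.77 CPM in RPMs (log2 fold change −6.99, SE 0.41, edgeR adjusted p = 4.79e-08). *Cx3cr1*, the fractalkine receptor, was at 52.4, 68.7, 129.9, and 105 CPM and 2.02, 1.47, 0.439, and 1.70 CPM (log2 fold change −5.95, SE 0.38, edgeR adjusted p = 8.85e-08), and *Itgal*, a subunit of the integrin LFA-1, at 365 to 487 and 6.58 to 11.7 CPM. *Pglyrp1*, a peptidoglycan-recognition protein, had a ratio of 91.1 (95% counting interval 43.9 to 228). *Nr4a1*, the nuclear receptor that nonclassical monocytes require, fell by 2.62 but stayed at 13.9, 12.9, 16.9, and 12.1 CPM in RPMs. The adhesion receptor gene *Adgre4* rose, from 35.7, 72.9, 129, and 134 CPM to 281, 286, 255, and 328 CPM (1.63), but not when tested against the fold threshold itself (adjusted p = 0.0472). *Cd300e* was just under the threshold (log2 fold change 0.99, SE 0.25, edgeR adjusted p = 0.00635) and was called with the mouse number as a replicate block (1.06, edgeR adjusted p = 0.000796) and without the monocyte library of mouse 3 or mouse 4, which gave 2 members higher instead of 1.

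Receptors for chemoattractants and sphingosine-1-phosphate were mostly lower, with 11 of 16 down, 2 up, and a median of −3.66. Beside *Ccr2* and *Cx3cr1*, the leukotriene B4 receptor gene *Ltb4r1* had 210 counts in monocytes and 6 in RPMs, a ratio of 37.9 (95% counting interval 17.1 to 104). *Ccr1*, a receptor for inflammatory chemokines, had 116 and 6 counts, a ratio of 20.9 (95% counting interval 9.33 to 58.2). *Ccr3*, best known as the eotaxin receptor, rose from 1.97, 8.41, 4.09, and 6.79 CPM to 323, 341, 300, and 385 CPM (log2 fold change 5.96, SE 0.29, edgeR adjusted p = 1.08e-08). Of the other 5 eosinophil markers, *Prg2* was not called and 4, among them *Siglecf* and *Epx*, did not pass the filter. The formyl peptide receptor gene *Fpr1* rose to 23.5, 27.3, 20.4, and 27.7 CPM from 0.246 to 1.03 CPM (5.08).

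Of 15 integrin genes, 3 rose and 8 fell, beside 25.9% called over all genes tested. The integrin alpha chain gene *Itga9* rose with *Itgad*, from 5.66, 7.77, 7.54, and 3.29 CPM to 299, 358, 309, and 314 CPM (log2 fold change 5.72, SE 0.22, edgeR adjusted p = 1.5e-09), and the beta chain gene *Itgb5* rose by 3.24. *Itgb7*, which pairs with alpha 4 and alpha E chains, was even in monocytes, at 113, 118, 126, and 113 CPM, and fell to 10.1, 4.90, 4.17, and 6.18 CPM. *Itga2*, which encodes the NK cell antigen CD49b, fell from 72.1, 61.4, 27.8, and 41.6 CPM to 0.673, 0.981, 0.219, and 1.28 CPM (−5.93), and its order in monocytes was that of the NK cell markers given above. The part of NK cell transcripts in the fall of *Itga2* was not tested.

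Of 24 cytokine and growth factor receptor genes, 5 were higher, 4 lower, and 15 not called, beside 25.9% called over all genes tested. *Csf1r*, the receptor for the macrophage growth factor CSF1, was at 139, 189, 411, and 321 CPM in monocytes and 1729, 1614, 1543, and 1571 CPM in RPMs (log2 fold change 2.61, SE 0.29, edgeR adjusted p = 1.08e-05), so it was counted at a high level in both. The TGF-beta superfamily receptor genes *Acvrl1* and *Tgfbr2* rose by 2.19 and 1.64, and *Tgfbr2* was even across mice, at 69.6, 67.2, 67.4, and 70.0 and 220.1, 215, 221, and 195 CPM. *Il1r1*, the IL-1 receptor gene, rose from 0.984, 1.05, 0.646, and 0.617 CPM to 4.93, 4.25, 4.82, and 5.75 CPM (2.55). *Il17ra* and *Il13ra1* fell (log2 fold changes −2.86 and −1.57), and *Il13ra1* did not pass when tested against the fold threshold itself. *Il18r1*, also an NK cell gene, fell from 90.3, 61.4, 22.4, and 46.7 CPM to 2.24, 0.981, 0.219, and 1.28 CPM and followed the order of the NK cell markers in monocytes, and their part in this fall was not tested. *Ifngr1*, the interferon gamma receptor gene, was not called, at 184 to 238 and 141 to 159 CPM.

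Among Toll-like receptor and inflammasome genes, 6 of 22 rose and 2 fell, beside 25.9% called in either direction over all genes tested. The lipopolysaccharide receptor rose in its parts, with *Tlr4* at 6.396, 4.83, 9.26, and 12.6 CPM in monocytes and 99.3, 102, 92.5, and 98.4 CPM in RPMs (log2 fold change 3.56, SE 0.22, edgeR adjusted p = 6.17e-08) and its partner *Ly96* at 0.492 to 2.47 and 4.74 to 8.09 CPM (2.53), beside *Cd14*. *Il18*, an inflammasome-processed cytokine, rose from 1.23, 4.41, 2.58, and 2.68 CPM to 62.5, 53.8, 63.4, and 70.1 CPM (4.48). *Pycard*, the inflammasome adaptor gene, fell by 1.36, and *Casp4*, which encodes a caspase that senses lipopolysaccharide, fell by 1.13. Neither passed when tested against the fold threshold itself (glmTreat).

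Of 12 genes of MHC class II presentation, 3 rose and 1 fell, near the share called over all genes tested (25.9%), and the class II genes themselves were not called. The costimulatory genes *Cd86* and *Cd80* rose, *Cd86* from 4.43, 6.09, 8.18, and 8.85 CPM to 96.6, 104, 99.1, and 115 CPM (3.90) and *Cd80* to 16.1 to 17.7 CPM from 0.738 to 4.12 CPM (2.57). *Cd40* fell, from 8.12, 15.6, 15.3, and 16.1 CPM to 4.04, 0.654, 1.32, and 1.06 CPM (−3.01). The invariant chain gene *Cd74* had a log2 fold change of 0.95 and passed the fold threshold (1.02) without the monocyte library of mouse 1.

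Of 24 type I interferon-stimulated genes, 18 were not called, 2 rose, and 4 fell, so the 6 called were close to the share of all genes tested (25.9%). *Rsad2* (viperin) was at 1.97, 3.78, 7.32, and 10.1 CPM in monocytes and 53.4, 29.4, 219, and 311 CPM in RPMs (log2 fold change 4.70, SE 0.75, edgeR adjusted p = 0.000217), and RPMs of mice 3 and 4 were above those of mice 1 and 2. *Oasl2* fell from 2.46, 7.56, 19.6, and 11.5 CPM to 0.897, 1.14, 0.877, and 0.213 CPM, and the nucleic acid sensor gene *Zbp1* to 1.28 to 2.69 CPM from 20.2 to 32.9 CPM (−3.64 and −3.46). With the mouse number as a replicate block, and also without the monocyte library of mouse 1, 7 members were lower. Leaving out any 1 library other than those of mice 3 and 4 in monocytes and of mouse 1 in RPMs left only 1 member higher, and with the test against the fold threshold itself 1 was higher and 2 were lower.

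Cell cycle genes were called less often than all genes tested (25.9%). Of 22 tested, 3 rose, none fell, and 5 further members did not pass the filter. *Mki67* was at 30.0, 35.1, 33.6, and 19.96 CPM in monocytes and 89.7, 47.4, 122, and 119 CPM in RPMs (log2 fold change 1.67, SE 0.27, edgeR adjusted p = 0.000276), and it was lowest in the RPM library of mouse 2. The number of members higher was 5 without that library, with all 24 libraries in the fit, or with a filter on mean CPM, and 0 when tested against the fold threshold itself. *Birc5* and *Rrm2* rose by 1.45 and 1.32. The 27 listed genes summed to 250, 219, 173, and 162 CPM in monocytes and 316, 220, 369, and 376 CPM in RPMs. The order of the RPM libraries was that of the erythroid markers given below. The part of erythroid transcripts in these rises was not tested. Glycolysis genes were lower where they were called, apart from *Hk3*, a hexokinase of myeloid cells, which rose by 1.602. The glucose transporter gene *Slc2a3* fell from 34.4, 30.7, 18.1, and 22.8 CPM to 1.35, 2.29, 1.97, and 2.56 CPM (−3.66), and the lactate exporter gene *Slc16a3* fell by 3.30. *Hk1* and *Pfkp*, which encode a hexokinase and a phosphofructokinase, fell too (−2.34 and −1.87). In all, 6 of 20 glycolysis genes fell and 13 were not called, among them *Gpi1* (−0.73), beside 25.9% called over all genes tested.

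NADPH oxidase genes fell in 5 of 6 cases, with a median of −1.80. *Cybb*, the catalytic subunit, was at 283, 413, 797, and 661 CPM in monocytes and 152, 144, 155, and 165 CPM in RPMs (log2 fold change −1.80, SE 0.26, edgeR adjusted p = 0.000112). The cytosolic subunit genes *Ncf1* and *Ncf4* fell (−2.75 and −2.54), and *Rac2*, the GTPase that activates the complex, fell by 1.79. *Cyba*, which forms the membrane complex with *Cybb*, was not called, at 94.0 to 125 and 128 to 170.4 CPM.

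**Figure D3:**
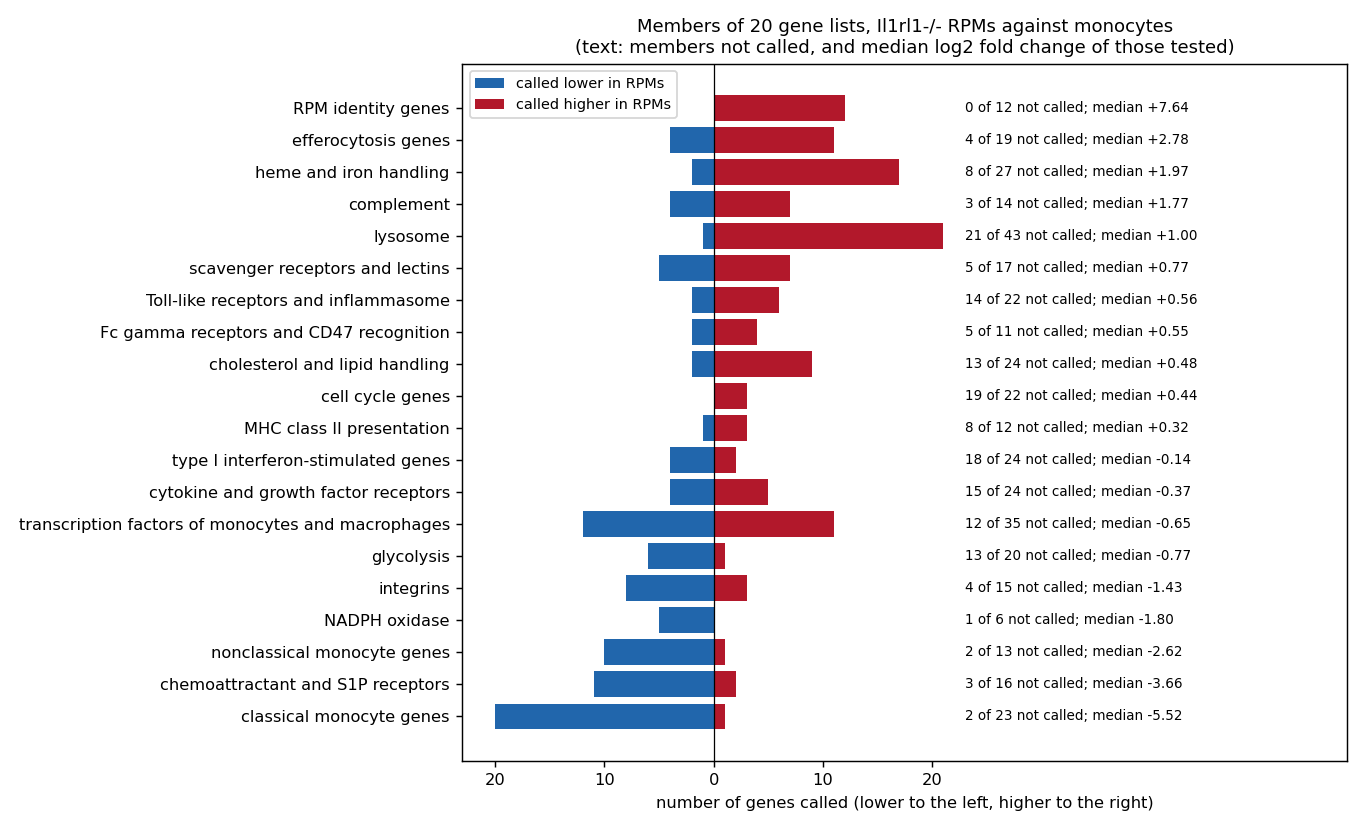
Bars give the number of genes called lower (blue, to the left) and higher (red, to the right) in RPMs for each of 20 gene lists, ordered by median log2 fold change, which is printed at the right with the number not called. RPM identity genes (median 7.64) and classical monocyte genes (median −5.52) are at the 2 ends.

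Markers of some other cell types differed between the groups, and those of B cells and most of those of T cells were not called. All 8 NK cell markers fell. *Gzma*, a granzyme, was at 657, 522, 224, and 372 CPM in monocytes and 5.604, 4.25, 2.19, and 2.98 CPM in RPMs, and *Ncr1*, an activating receptor of NK cells, at 275, 205, 88.5, and 125 CPM and 3.14, 4.25, 0.877, and 0.852 CPM (log2 fold change −6.17, SE 0.48, edgeR adjusted p = 5.37e-07). *Prf1* (perforin) fell by 6.31. Of the defining T cell markers, *Cd3d*, *Cd3e*, *Cd3g*, *Cd5*, and *Trac* were not called, and *Cd2* and *Lck*, which NK cells also express, fell. The 7 B cell markers summed to 22.2 to 67.6 CPM in monocytes and 32.5 to 54.3 CPM in RPMs. The gates in the labels name no NK cell marker, and NK cells carry CD11b. The flow cytometry of the study counts these populations among cells low for the NK cell antigen that *Klrb1c* encodes. The labels do not say whether the sort used that gate. Whether its antibody stains NK cells of Balb/c mice was not tested here. *Klrb1c* itself was at 50.4, 32.1, 12.3, and 20.2 CPM in monocytes and 0.673, 0.981, 1.10, and 0.213 CPM in RPMs.

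Plasma cell markers fell in 5 of 5 tested cases. *Jchain*, which joins secreted IgA and IgM, was at 1069.6, 1614, 658, and 309 CPM in monocytes and 64.8, 29.7, 8.99, and 10.6 CPM in RPMs (log2 fold change −5.00, SE 0.67, edgeR adjusted p = 5.66e-05), and *Igha*, the constant region of IgA, at 2697, 3283, 2422, and 714 CPM and 28.9, 24.02, 7.46, and 1.06 CPM (log2 fold change −7.20, SE 0.79, edgeR adjusted p = 9.93e-06). *Sdc1*, which encodes the plasma cell antigen CD138, had 204 and 6 counts, a ratio of 36.8 (95% counting interval 16.6 to 101). Of 85 immunoglobulin genes and segments tested, 82 fell and none rose, with a median of −5.13. All 425 listed, tested or not, summed to 8039, 10606, 6746, and 2416 CPM in monocytes and 496, 255, 121, and 131 CPM in RPMs. Immunoglobulin segments are near-identical in part, so the count of a single segment is uncertain. Immunoglobulin genes therefore made up 82 of the 1347 genes lower in RPMs.

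Erythroid markers rose in 10 of 10 cases. *Hbb-bs*, a beta-globin gene, was at 2.46, 2.52, 3.66, and 4.53 CPM in monocytes and 1558, 463, 5930.2, and 9447 CPM in RPMs (log2 fold change 10.35, SE 1.00, edgeR adjusted p = 3.34e-06), and was highest in the RPM libraries of mice 3 and 4. The alpha-globin genes *Hba-a2* and *Hba-a1*, near-identical copies whose counts may be split between them, were at 363, 139, 2148, and 1451 CPM and 374, 104, 1407, and 2136 CPM in RPMs. The 10 markers summed to 12.1, 18.3, 14.0, and 13.8 CPM in monocytes and 2644, 860.5, 10548, and 14357 CPM in RPMs. RPMs engulf red blood cells, and transcripts from engulfed or attached erythroid cells cannot be told apart here from transcripts of the RPMs. Of the remaining marker sets, *Pecam1* was the only endothelial and stromal marker that passed the filter and it rose, and *Itgb3* was the only platelet marker called. Dendritic cell markers fell in 3 of 4 tested cases.

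**Figure D4:**
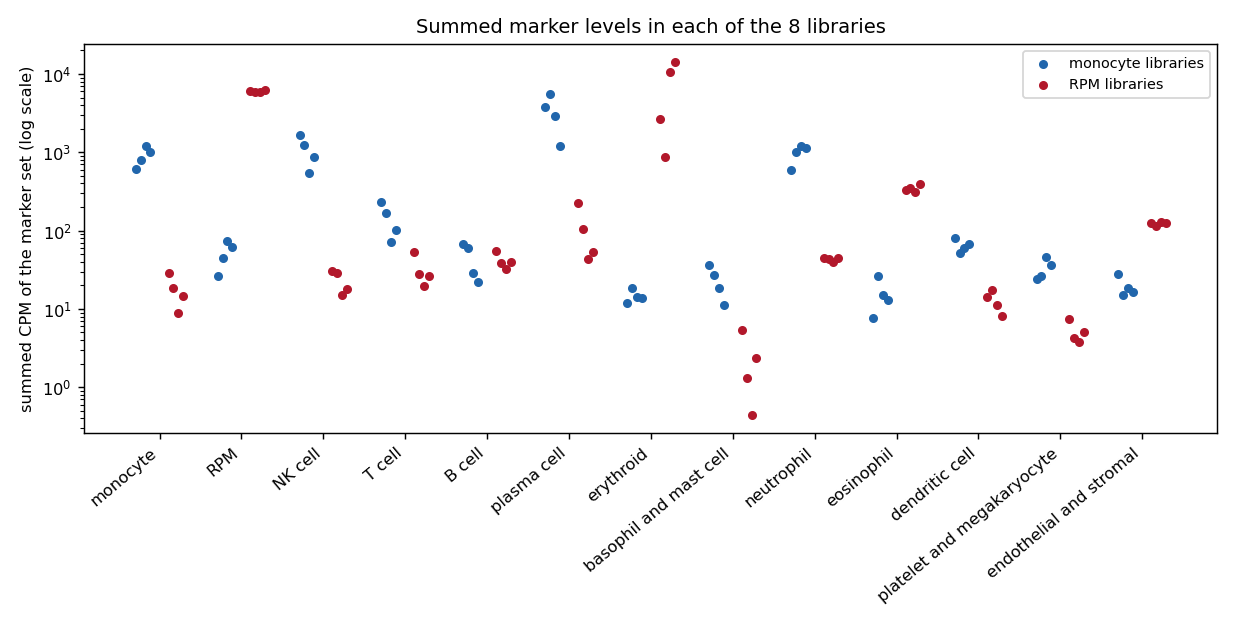
Summed CPM of 13 sets of marker genes (log axis) in the 4 monocyte libraries (blue) and the 4 RPM libraries (red) of *Il1rl1*-/- mice, with mice 1 to 4 from left to right in each cluster. NK, plasma cell, and neutrophil markers are higher in monocytes, and erythroid markers are higher in RPMs, where they range from 860.5 to 14357 CPM.

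Whether the step from monocytes to RPMs differed between the genotype labels was tested as an interaction over 16 libraries. Of 12592 genes tested, 4 were called (0.0318%) at an adjusted p under 0.05, and 609 had an unadjusted p under 0.05. *Snx9*, a sorting nexin of endocytosis, was at 14.5, 15.3, 27.1, and 23.3 CPM in *Il1rl1*-/- monocytes and 68.8, 67.0, 64.5, and 63.5 CPM in *Il1rl1*-/- RPMs, against 25.3 ± 3.24 and 23.04 ± 2.92 CPM in WT (mean ± SD, n = 4 each). It rose in the *Il1rl1*-/- comparison (1.72) and the difference in change was 1.85, SE 0.24, edgeR adjusted p = 0.00819. *Nrp2*, a semaphorin and VEGF co-receptor, was at 9.59, 5.25, 7.11, and 5.35 CPM and 13.9, 8.83, 10.7, and 8.94 CPM, against 11.2 ± 2.84 and 2.71 ± 0.786 CPM in WT (mean ± SD, n = 4 each), with a difference of 2.66, SE 0.37, edgeR adjusted p = 0.00819. Its *Il1rl1*-/- groups overlapped and were not called, and its WT mean was lower in RPMs than in monocytes. Both genes kept the call under every alternative run.

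The other genes called were *Il1rl1* itself (−3.28, SE 0.51, edgeR adjusted p = 0.0269) and *Il1r1* (−3.57, SE 0.59, edgeR adjusted p = 0.0382). *Il1rl1* was at 3.19 ± 1.05 CPM in WT monocytes and 1.94 ± 0.800 CPM in WT RPMs, and *Il1r1* at 0.170 ± 0.129 and 14.1 ± 3.64 CPM (mean ± SD, n = 4 each). *Il1r1* (chr1:40225080-40317257) lies near *Il1rl1* on chromosome 1, and its mean was higher in RPMs than in monocytes under both genotype labels, by less under *Il1rl1*-/-. *Il1rl1* lost its call with the mouse number as a replicate block (edgeR adjusted p = 0.0580) and without any 1 of 7 libraries (up to 0.0991), and *Il1r1* lost its call with all 24 libraries in the fit (0.149) and without most single libraries (up to 0.255). With the mouse number as a replicate block, 21 genes were called, of which 15 were immunoglobulin genes. None of the 12 RPM identity genes was among the 4, beside 0.0318% called over all genes tested. Their differences ran from 0.162 (*Slc11a1*, SE 0.43) to 3.83 (*Cd5l*, SE 1.48). The absence of a call therefore does not show that their changes were equal under both genotype labels.

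**Figure D5:**
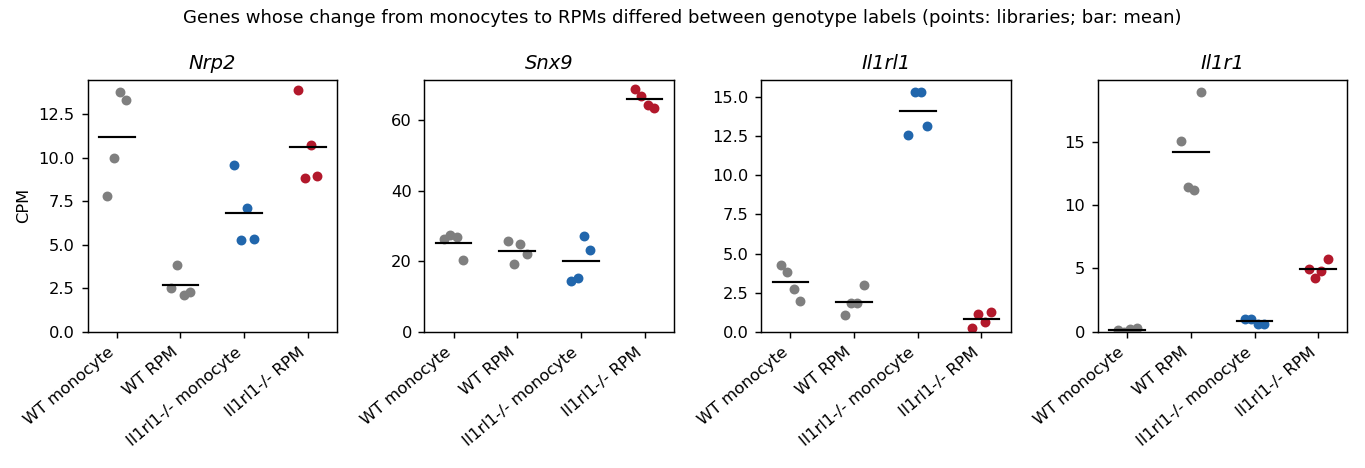
CPM of the 4 genes whose change from monocytes to RPMs differed between genotype labels, with a point for each library, a bar at the mean, and WT in grey. *Snx9* lies at 63.5 to 68.8 CPM in *Il1rl1*-/- RPMs, above every library of the other 3 groups, and *Il1rl1* is highest in *Il1rl1*-/- monocytes.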

How the data were processed

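Total RNA from freshly sorted splenocytes was made into stranded libraries. The raw counts per gene were deposited by the authors, after trimming (cutadapt), alignment (STAR 2.5.1), and counting (featureCounts 1.6.2) on Ensembl 95 gene models of GRCm38, according to the file header and the submitters' processing notes. The table lists 54735 genes for 24 libraries, and 54070 gene names have 1 Ensembl ID. Samples were grouped by their labels.

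CPM values were computed from the deposited counts with TMM factors over all 24 libraries. Fold changes came from edgeR's quasi-likelihood test (edgeR 4.0.16, R 4.3.3) on the 8 libraries, after filterByExpr, with no block. Genes were called at a Benjamini-Hochberg adjusted p under 0.01 and a log2 fold change beyond 1. The interaction of cell type and genotype was fitted on 16 libraries and called at an adjusted p under 0.05. All tests were two-sided. The prior count of 2 entered the log2 CPM values only, not the fitted fold changes. Fitted fold changes of genes near 0 rest on few counts in the lower group. These genes are also given by a bound against 3 counts over that group, or by a ratio of summed counts. The ratio is scaled by library size and has an exact 95% interval. Such intervals and floors cover counting error only, and 3 counts correspond to 0.563 to 0.842 CPM per library.

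The members and gene lists were chosen with earlier results of these data known. Genes were named by a rule: the 12 largest rises and falls among called genes with groups apart and a mean log2 CPM of at least 3, the 5 called genes highest per kb of exon in each group, the gate genes and *Il1rl1*, up to 4 called members of a list in each direction and 3 not called, and the 5 genes each way with the lowest adjusted p in the interaction. Further genes in the text were picked with their values in view. Some genes under the rule are counted in their lists but not reported here by name. Of the interaction genes under the rule, *Slc38a1*, *Myo10*, *Slc30a6*, *Sdc1*, *Tram2*, and *Ighg2c* were not called (adjusted p 0.133 to 0.314).

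The labels give the same mouse number to both cell types of an animal, so the numbers pair the libraries. After group means were taken off, libraries of the same mouse correlated at 0.168, 0.0544, 0.111, and 0.166 across genes, against −0.188 to 0.0566 for other pairs. No 2 replicates had the same counts, and the lowest chi-square per degree of freedom between replicates was 5.13 in monocytes and 6.42 in RPMs, above sampling noise. The fit was tested on simulated counts with known changes. At an adjusted p under 0.01, it recovered 75 of 200 genes changed 2-fold and 192 of 200 changed 4-fold. Of the calls, 2.6% and 0% were false. A gene that was not called may therefore still have changed by about 2-fold. Alternatives were DESeq2 1.42.0, RLE size factors, other filters, all 24 libraries in a single fit, a replicate block, a test against the fold threshold, no fold threshold, *Gm42418* left out, and leaving out each library. Sequences are from RefSeq. ATAC-seq data were not analysed here.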

Additional observations from a re-analysis of the deposited data

Results flagged for a closer look

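Of 389 groups of 4 libraries examined, 20 had a highest or lowest library set far apart from the other 3 by Dixon's test, and chance alone gives about 1 in 20. In monocytes, *Kcnj10* and *Kcnj16* were each at 0.210 CPM in mouse 2, *Mertk* was at 0.492 CPM in mouse 1, and *Slco2b1* was at 0.412 CPM in mouse 4, against 0 in the other 3 libraries. These values come from 1 or 2 counts each. *Timd4* was at 0 CPM in the monocytes of mouse 4 and at 0.420 to 0.492 CPM in the others. *C1qa* was at 4.31 CPM in mouse 3 (others 1.65 to 1.72), *Clec4n* at 2.47 CPM in mouse 4 (others 0.984 to 1.08), and *Blvra* at 8.83 CPM in mouse 2 (others 6.396 to 6.79). *Cd40* was at 8.12 CPM in mouse 1, below 15.3 to 16.1 CPM in the others.

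In RPMs, the library of mouse 1 was highest for *S100a9* (1.79 CPM, others 0.639 to 0.817), *Ltf* (2.02 CPM, others 0 to 0.213), *Anxa1* (2.47 CPM, others 0.817 to 0.877), and *Maf* (437 CPM, others 384 to 391). The library of mouse 2 was highest for *Camp* (0.490 CPM) and *Casp4* (6.54 CPM, others 4.26 to 4.48), and lowest for *Fth1* (746 CPM, others 911 to 942). The library of mouse 4 was lowest for *Gas6* (27.7 CPM, others 31.2 to 31.8) and highest for *Msr1* (2.34 CPM, others 0.817 to 0.897). The library of mouse 3 was lowest for the summed CPM of integrin genes (2231, others 2382 to 2402) and of neutrophil markers (39.9, others 43.8 to 44.3).

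The change from monocytes to RPMs differed between the genotype labels for *Nrp2* (2.66), *Snx9* (1.85), *Il1rl1* (−3.28), and *Il1r1* (−3.57), as log2 differences of *Il1rl1*-/- minus WT from edgeR's interaction test (adjusted p = 0.00819, 0.00819, 0.0269, and 0.0382).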

How the results depend on the processing

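Counts of called genes between monocytes and RPMs were 2985 to 3930 under DESeq2, RLE size factors, other filters, all 24 libraries, the replicate block, and without *Gm42418*, against 3009, and 2945 to 3116 without 1 library each, which kept 92.1% to 94.8% of the calls. With the mouse number as a replicate block, 3038 genes were called (1673 higher and 1365 lower), with 48 of the 3009 calls lost and 77 gained. Among genes named in the text, the block changed the calls of *Dock1* and *Cd300e*, and of *Il1rl1* in the interaction. A test against the fold threshold (glmTreat) called 1878 genes (989 higher, 889 lower), and *Bach1*, *Dock1*, *Fcgr4*, *Sirpb1a*, *Pltp*, *Fabp4*, *Adgre4*, *Il13ra1*, *Pycard*, *Casp4*, *Mki67*, *Birc5*, and *Rrm2* lost the call there. With no fold threshold, an adjusted p under 0.05 called 5760 (3022 higher, 2738 lower). Over 161 named genes, 2396 of 2414 values under the alternatives other than glmTreat kept direction and call, 12 lost the call, 6 gained it, and 0 changed direction. For the interaction, 4 genes were called (2 of them lower), against 37 with DESeq2 (6 higher, 31 lower, 22 of them immunoglobulin genes), 165 with every gene of at least 1 count (13 higher, 152 lower, 83 immunoglobulin), 21 with the replicate block (19 lower), and 4 with all 24 libraries (1 lower). Without 1 library each, 2 to 10 were called, with 0 to 8 lower. Without the *Il1rl1*-/- monocyte library of mouse 4, 10 were called, 3 of them immunoglobulin genes. Of 92 values of the 4 interaction genes, 22 lost the call, all of *Il1rl1* or *Il1r1*. The cause was not tested. Genes at a few counts in 1 group have ratios with wide intervals at these depths, and genes under the filter were not tested.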

Other observations

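Type I interferon-stimulated genes differed between mice in the same way in each cell type. The 25 listed genes summed to 301, 341, 640, and 556 CPM in *Il1rl1*-/- monocytes, 653, 631, 943, and 877 CPM in pre-RPMs, and 400.2, 379, 713, and 806 CPM in RPMs. Mice 3 and 4 were above mice 1 and 2 in all 3 cell types. In WT, whose mice are other animals, the sums were 278, 269.6, 523, and 493 CPM in monocytes and 349, 379.7, 813, and 518 CPM in RPMs, with mice 3 and 4 again above mice 1 and 2. The labels name no batch or day for these numbers, so mouse and batch cannot be told apart.

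By gene type, 1501 protein-coding genes were called higher in RPMs, 1157 lower, and 7790 not called. Over all genes tested, 14.3% were higher and 11.6% lower, and no gene type was tested against these shares. Of small nucleolar RNA genes, 10 were higher in RPMs and 0 lower, while 48 were not called. Of long intergenic noncoding RNA genes, 21 were higher, 20 lower, and 87 not called.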
